A study of Mus musculus with 12 samples.

Results

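The methionine and methylation cycle was followed through 9 enzyme genes, *Mat1a*, *Mat2a*, *Gnmt*, *Ahcy*, *Bhmt*, *Mtr*, *Cbs*, *Cth* and *Pemt*, in RNA-seq of mouse liver. They were taken by gene symbol from a table of 24532 genes, and all 9 were found and had enough counts to be tested. The study had 4 groups of 3 livers from male C57BL/6 mice. WT mice carried *Ahr* fl/fl alleles, with loxP sites around the second exon of *Ahr*, and had no Cre. *Ahr* HKO mice carried the same alleles with Cre driven by the albumin promoter, which directs the deletion to hepatocytes and leaves *Ahr* in the other cells of the liver. Each genotype received either a Lieber-DeCarli liquid diet with ethanol at 5% of the volume and 36% of the calories, or an isocaloric control diet, for 5 weeks from an age of 10 to 12 weeks.

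The methionine cycle makes S-adenosylmethionine, the methyl donor of the cell, and regenerates methionine after the methyl group has been used. MAT enzymes join methionine and ATP to S-adenosylmethionine, methyltransferases such as GNMT and PEMT pass its methyl group on and release S-adenosylhomocysteine, and AHCY splits that product into homocysteine and adenosine. Homocysteine is either remethylated to methionine, by BHMT with betaine or by MTR with methylfolate and cobalamin, or drawn off by CBS and CTH towards cysteine and glutathione. The liver is the main site of this cycle, and ethanol feeding is a classical setting in which it has been studied.

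Between 46306518 and 74336255 reads per library fell on genes, of which the 9 genes together took 0.7415% to 1.581%. Expression is given as CPM, counts per 1e6 reads scaled by the TMM factors of edgeR, and comparisons between genes are given in FPKM, which accounts for gene length. *Ahr* itself did not serve as a check of the labels, because its count covers all exons and not only the deleted one: it was 20.1, 16.6 and 18.3 CPM in the WT control livers and 65.5, 41.3 and 63.3 CPM in the control livers labelled *Ahr* HKO. *Cyp1a2*, a classical AHR target, was 490 ± 114 CPM (SD, n = 3) in WT control, 154 ± 91.2 CPM in *Ahr* HKO control, 1089 ± 112 CPM in WT ethanol and 657 ± 27.6 CPM in *Ahr* HKO ethanol livers. *Cyp1a1*, also an AHR target, went the other way on the control diet, at 0.256 ± 0.0809 CPM in WT and 0.723 ± 0.245 CPM in *Ahr* HKO. On ethanol it was 1.34 ± 0.319 CPM in WT and 1.31 ± 0.324 CPM in *Ahr* HKO, and it rested on only 10 to 104 counts per liver. The 5 hepatocyte markers, such as *Alb*, summed to between 81753 and 127381 CPM. The 6 Kupffer cell and macrophage markers summed to 189 to 232 CPM in the *Ahr* HKO ethanol livers and 293 to 733 CPM in the *Ahr* HKO control livers, without overlap, and to 324 to 432 CPM and 280.2 to 753 CPM in the WT control and ethanol livers. In the same *Ahr* HKO ethanol and control livers the 6 sinusoidal endothelial markers summed to 168 to 187 CPM and 242 to 266 CPM, the 6 leukocyte markers to 8.29 to 10.2 CPM and 17.9 to 31.5 CPM, and the 6 stellate cell markers to 219 to 254 CPM and 204 to 216 CPM, each without overlap. Between these groups 49.8% of all genes did not overlap. The stellate markers went both ways there, with 1 called higher and 1 lower (log2 FC -0.99 to 0.69). The leukocyte markers ranged from -1.65 to 0.51, with 3 called lower and none higher. All 6 Kupffer cell and macrophage markers were called lower, and the endothelial markers ranged from -0.84 to -0.20. The stellate sums were 278 to 327 CPM in the WT ethanol livers and 198 to 261 CPM in the WT control livers, and no marker of any list was at 0 in all livers of a group. The 6 cholangiocyte markers varied most within a group, from 44.7 to 476 CPM in the *Ahr* HKO control livers. Their sums were 40.3 to 132 CPM in WT control, 42.9 to 57.3 CPM in WT ethanol and 37.1 to 67.1 CPM in *Ahr* HKO ethanol livers. In such bulk samples fewer cells of a type and less RNA per cell cannot be told apart, and the part of these markers in the results below was not tested.

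AHR binds DNA at sites with the core GCGTG, so the promoters of the 9 genes were searched for it, for the longer form TNGCGTG, and for the E-box CACGTG as a motif of other factors, on both strands. Promoter windows of 300 bases (250 before and 50 after the start that each window gives, GRCm38.p6) were at hand for 7 of the genes, with a pair for *Pemt*, and those of *Mat1a* and *Cth* were not used here. For *Gnmt*, *Mtr*, *Cbs* and *Pemt* this start lies inside the RefSeq span of the gene. GCGTG is part of TNGCGTG, so each longer match is also counted as a short one. *Gnmt* held 3 matches to GCGTG, 1 of them in the longer form, *Mat2a* held 1 in the longer form and *Ahcy* held 1. *Cbs* held 1 E-box, and the windows of *Bhmt*, *Mtr* and *Pemt* held none of these letters. Of 32851 promoter windows of this length, 32.4% held GCGTG, 5.07% held TNGCGTG and 7.15% held CACGTG. A match is a description and not a binding site.

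The 250 bases before the start of the 3 genes with a match to the AHR core are printed 5′ to 3′ along the gene, which lies on the minus strand in each case, with the matches in capitals (on the opposite strand the core reads as CACGC). The windows are chr17:46729166-46729415 for *Gnmt*, chr6:72439557-72439806 for *Mat2a* and chr2:155074498-155074747 for *Ahcy*, and the third match of *Gnmt* lies after the start. The RefSeq span of *Gnmt* reaches to 46729211, so part of its printed bases, with the longer match, lies within that span.
Gnmt: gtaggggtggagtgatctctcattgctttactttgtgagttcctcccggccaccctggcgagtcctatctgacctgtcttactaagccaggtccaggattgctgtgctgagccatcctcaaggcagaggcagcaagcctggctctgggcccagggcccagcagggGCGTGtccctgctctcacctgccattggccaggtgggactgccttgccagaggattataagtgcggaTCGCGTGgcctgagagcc
Mat2a: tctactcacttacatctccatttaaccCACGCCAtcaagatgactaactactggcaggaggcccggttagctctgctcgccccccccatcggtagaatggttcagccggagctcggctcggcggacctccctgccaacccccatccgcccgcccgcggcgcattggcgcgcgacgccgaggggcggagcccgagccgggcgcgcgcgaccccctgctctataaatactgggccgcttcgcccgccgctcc
Ahcy: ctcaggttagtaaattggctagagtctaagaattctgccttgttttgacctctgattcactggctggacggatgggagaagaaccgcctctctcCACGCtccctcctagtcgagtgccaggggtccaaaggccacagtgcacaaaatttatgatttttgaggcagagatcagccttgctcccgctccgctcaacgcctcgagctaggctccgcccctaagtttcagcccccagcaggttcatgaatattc

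On the FPKM scale the level of the 9 genes spanned from among the most abundant transcripts of the liver to a low level. Over the 12 livers *Gnmt* averaged 1608 FPKM, *Bhmt* 1412.5 FPKM, *Mat1a* 754 FPKM and *Ahcy* 684 FPKM, which placed them at ranks 52, 58, 99 and 106 of 24532 genes. *Pemt* averaged 211 FPKM, *Cbs* 191 FPKM and *Cth* 118 FPKM, and *Mat2a*, the isoform of extrahepatic and dividing cells, averaged 30.5 FPKM. *Mtr* averaged 0.881 FPKM, at rank 10536, and rested on 116 to 369 counts per liver against 3143 or more for every other member. *Ahcy*, *Cth* and *Mat2a* were above the next gene in this order in all 12 livers. The order was not settled within the livers for *Gnmt* over *Bhmt* and for *Mat1a* over *Ahcy*, each held in 6 of 12, for *Pemt* over *Cbs*, held in 8, for *Bhmt* over *Mat1a*, held in 9, and for *Cbs* over *Cth*, held in 10.

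**Figure D1:**
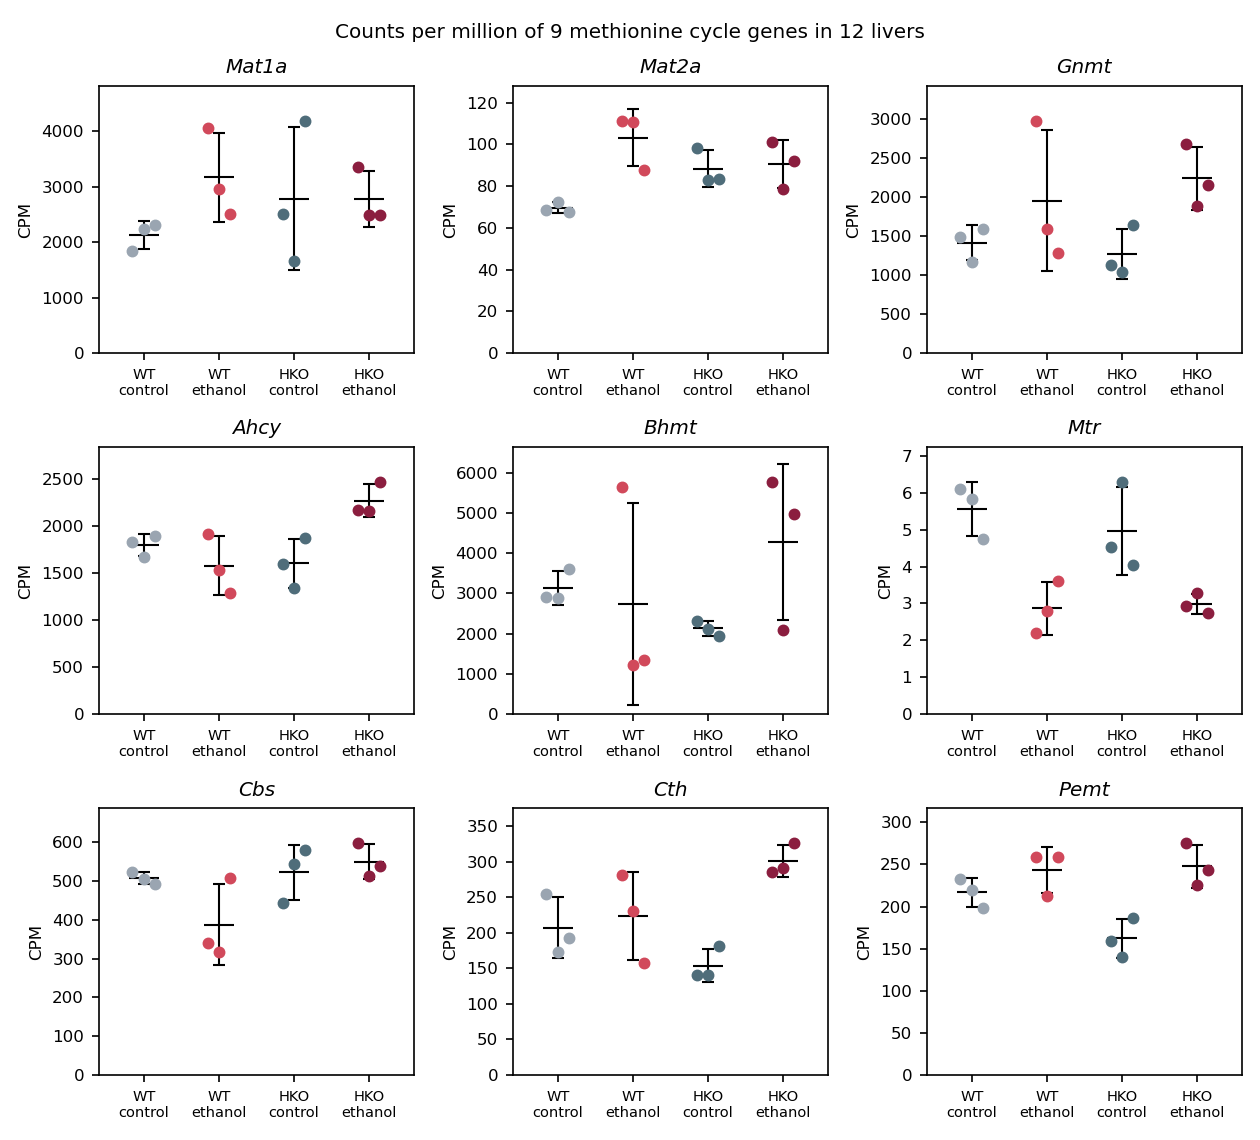
CPM (linear axis from 0) of each gene in every liver, with points for single livers and bars for the mean ± SD of 3 livers. The *Mat2a* points of the WT control livers lie below those of the other 3 groups, *Mtr* is lower in both ethanol groups, and *Bhmt* spreads most in the ethanol groups.

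A gene was called where the adjusted P value of the edgeR quasi-likelihood test was under 0.05. Ethanol changed 2 of the 9 genes in WT, *Mat2a* upward and *Mtr* downward, where 9.47% of all 14038 tested genes were called. In *Ahr* HKO ethanol changed 4 of the 9, with *Gnmt*, *Cth* and *Pemt* higher and *Mtr* lower, where 30.8% of all genes were called. On the control diet *Ahr* HKO livers differed from WT in 2 of the 9, *Bhmt* lower and *Mat2a* higher, against 29.6% of all genes. On the ethanol diet none of the 9 was called between the genotypes, against 1.1% of all genes, and 2 had an unadjusted P value under 0.05, against 21% of all genes. DESeq2 called 1 of the 9 there, *Ahcy*, against 10.8% of all genes, and limma on FPKM called none, against 0.644% to 3.4%. The CPM of the groups did not overlap for 3 of the 9 genes with ethanol in WT (32.9% of all genes), 5 with ethanol in *Ahr* HKO (49.8%), 3 between the control groups (47.3%) and 3 between the ethanol groups (27.9%). The diet and genotype comparisons share groups, so their values are given side by side only. The 9 genes were chosen with earlier results of these data known, so these counts cannot test an excess over all genes. The median log2 FC of the 9 genes was 0.12 for ethanol in WT, 0.50 for ethanol in *Ahr* HKO, -0.16 between genotypes without ethanol and 0.20 between genotypes with it, while that of all tested genes was 0.03, -0.02, -0.00096 and -0.0076.

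**Figure D2:**
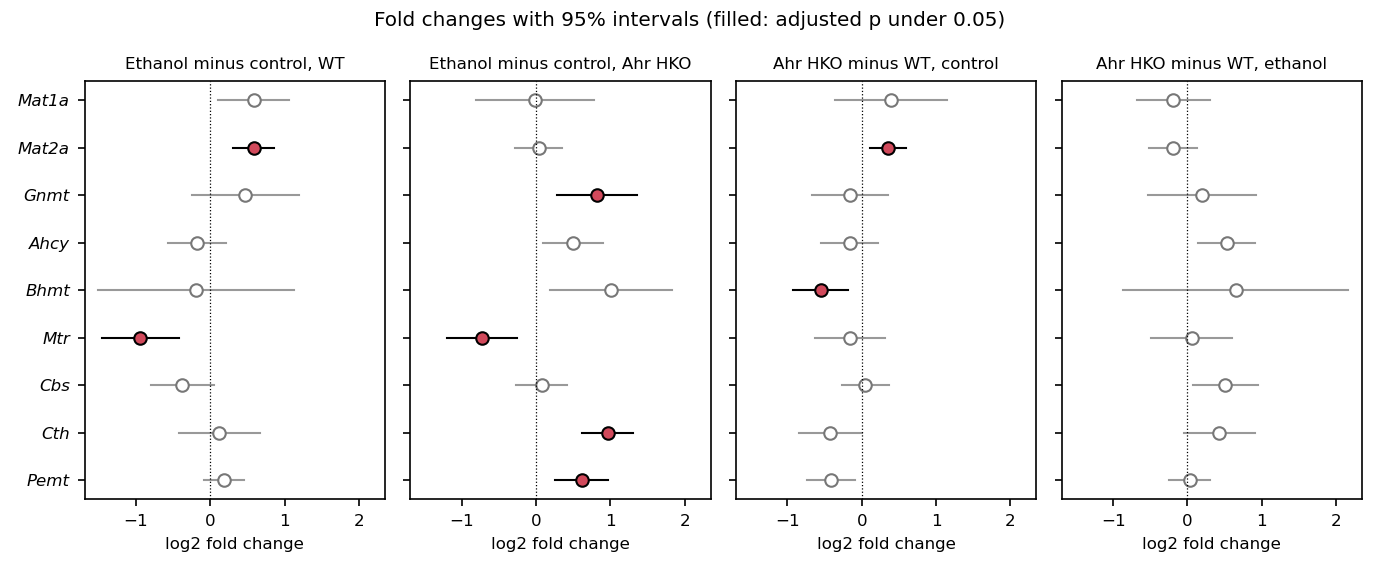
Log2 FC of the 9 genes with 95% intervals in the 4 pairwise comparisons of 3 livers with 3 (edgeR), on a shared axis. Filled points have an adjusted P value under 0.05, which holds for 2, 4, 2 and 0 of the 9 genes from left to right.

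The synthesis of S-adenosylmethionine was represented by *Mat1a*, the form of the adult hepatocyte, and *Mat2a*, the form of most other tissues. *Mat2a* (chromosome 6, 72432796 to 72439556) was 68.6, 72.5 and 67.6 CPM in the WT control livers and 111, 111 and 87.5 CPM in the WT ethanol livers, so that every ethanol liver was above every control liver. It rose by 0.58 on the log2 scale (SE 0.12, adjusted P = 0.0268). The *Ahr* HKO control livers had 98.4, 83.0 and 83.5 CPM and the *Ahr* HKO ethanol livers 101, 78.4 and 91.9 CPM, with overlapping groups and a log2 FC of 0.03 (95% interval -0.28 to 0.35, adjusted P = 0.868). *Ahr* HKO control livers were all above WT control livers, by 1.27-fold (log2 FC 0.35, SE 0.10, adjusted P = 0.0404). The diet effect of *Mat2a* differed between the genotypes by a log2 value of -0.53 (SE 0.18, adjusted P = 0.0498), *Ahr* HKO minus WT, where 22.3% of all genes were called, and it was the only member called in that test. Each of these calls was lost in most fits with a liver left out, though the direction was kept. The log2 FC of the rise in WT was 0.50 to 0.69 in these fits. Fits with fewer livers also called fewer of all genes, 2.61% to 7.31% against 9.47% for ethanol in WT. The rise in WT kept its call without ethanol liver 3 alone (adjusted P = 0.0135) and had an adjusted P of 0.0591 to 0.096 without any of the other 5, and the genotype difference kept it without *Ahr* HKO control livers 2 or 3 (0.0422 and 0.0462) and had 0.09 to 0.126 without any of the other 4. In a fit of all 12 livers (0.0559) and with upper-quartile scaling (0.0805) the genotype difference was not called. The difference between the diet effects was not called with upper-quartile scaling (0.0561) or with no filter on low counts (0.0585), and it kept its call without WT ethanol liver 3 (0.0222) or *Ahr* HKO ethanol liver 1 (0.0383) and had 0.0542 to 0.118 without any of the other 10. *Ggcx* and the antisense transcript *Particl* overlap the ends of *Mat2a* and have counts of their own, 2692 to 4025 and 40 to 95, and whether strand was used in counting is not known.

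*Mat1a* (chromosome 14, 41105012 to 41124428) was 1844, 2234 and 2312 CPM in the WT control livers and 4052, 2949 and 2502 CPM in the WT ethanol livers. The groups did not overlap, and the log2 FC was 0.58 (SE 0.20), but the adjusted P was 0.122. DESeq2 (adjusted P = 0.0277) and limma on log2(FPKM + 1) (0.0458) called this difference. In *Ahr* HKO the control livers had 2502, 1664 and 4185 CPM, the widest spread of *Mat1a* in any group, and the ethanol livers had 3352, 2480.3 and 2494 CPM. The log2 FC there was -0.0093 (95% interval -0.80 to 0.78), and it turned to 0.42 without *Ahr* HKO control liver 3 (adjusted P = 0.24).

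**Figure D3:**
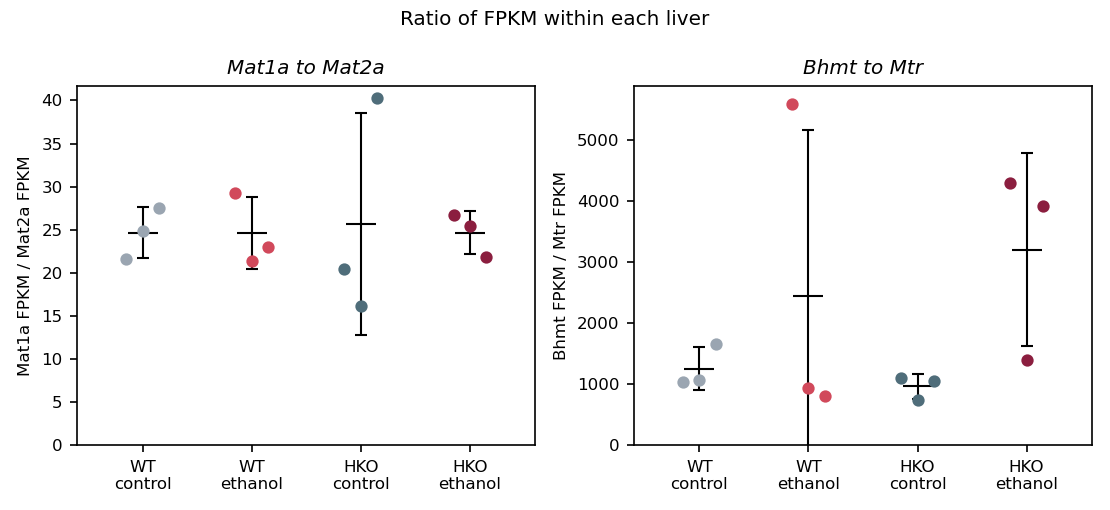
FPKM of *Mat1a* over that of *Mat2a* (left) and of *Bhmt* over that of *Mtr* (right) within each liver, on linear axes from 0, with points for single livers and bars for the mean ± SD of 3 livers. The *Mat1a* to *Mat2a* ratio is near 25 on average in every group, and the *Bhmt* to *Mtr* ratio reaches 5592 in WT ethanol liver 1, where the lower end of the SD bar falls below 0 and is not drawn.

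Within each liver *Mat1a* stood above *Mat2a* on the FPKM scale. The ratio of their FPKM averaged 24.6 ± 2.94 (SD, n = 3) in WT control, 24.6 ± 4.18 in WT ethanol, 25.6 ± 12.9 in *Ahr* HKO control and 24.7 ± 2.51 in *Ahr* HKO ethanol livers. The lowest single value, 16.1, and the highest, 40.3, both came from *Ahr* HKO control livers.

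The methyltransferases *Gnmt* and *Pemt* use the methyl group of S-adenosylmethionine, on glycine and on phosphatidylethanolamine. *Gnmt* (chromosome 17, 46725664 to 46729211), which is held to buffer the supply of S-adenosylmethionine, was 1136, 1034 and 1642 CPM in the *Ahr* HKO control livers and 2677, 1888 and 2158 CPM in the *Ahr* HKO ethanol livers, without overlap. It rose 1.76-fold (log2 FC 0.82, SE 0.23, adjusted P = 0.0348). The WT control livers had 1493, 1164 and 1596 CPM and the WT ethanol livers 2981, 1598 and 1280.3 CPM, where the groups overlapped and the log2 FC was 0.47 (SE 0.31, adjusted P = 0.38). The rise in *Ahr* HKO kept its call without control liver 3 (adjusted P = 0.0122) and without ethanol liver 2 (0.0489), and had an adjusted P of 0.0784 to 0.102 without any of the other 4. It was also lost in a fit of all 12 livers (0.0502) and in limma on quantile-normalized FPKM (0.0738).

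*Pemt* (chromosome 11, 59970614 to 60046561), which methylates phosphatidylethanolamine to phosphatidylcholine, was 159, 141 and 187 CPM in the *Ahr* HKO control livers and 276, 225 and 243 CPM in the *Ahr* HKO ethanol livers. The groups did not overlap and *Pemt* rose 1.53-fold (log2 FC 0.61, SE 0.15, adjusted P = 0.0218). WT control livers had 232, 219.98 and 198 CPM and WT ethanol livers 259, 212 and 259 CPM (log2 FC 0.18, 95% interval -0.09 to 0.45). Its level in *Ahr* HKO control livers lay below that of all 3 WT control livers, with a log2 FC of -0.41 (SE 0.14) and an adjusted P of 0.0577, and DESeq2 (0.0228), limma on log2(FPKM + 1) (0.0292) and the fit without *Ahr* HKO control liver 3 (0.0233) called it. The rise in *Ahr* HKO kept its call without control liver 3 (0.015) and ethanol liver 2 (0.0377) and had an adjusted P of 0.0503 to 0.063 without any of the other 4.

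*Ahcy* (chromosome 2, 155059310 to 155074497), which removes the S-adenosylhomocysteine left by these enzymes, was 1827, 1672 and 1894 CPM in WT control, 1909, 1536 and 1282 CPM in WT ethanol, 1590.4, 1344 and 1868 CPM in *Ahr* HKO control and 2167, 2161 and 2469 CPM in *Ahr* HKO ethanol livers. The *Ahr* HKO ethanol livers were above those of every other group. Against *Ahr* HKO control the log2 FC was 0.50 (SE 0.17, adjusted P = 0.0629), against WT ethanol it was 0.53 (SE 0.16, adjusted P = 0.143), and the diet effects differed by 0.69 (SE 0.24, adjusted P = 0.0555), none of which passed the threshold. Upper-quartile scaling called the first and the third (adjusted P = 0.0438 and 0.0434), and DESeq2 called all 3 (0.00844, 0.0296 and 0.0194). The near-identical retrogene *Gm4737* on chromosome 16 (12049 to 25769 counts) may take reads of *Ahcy*, and with its reads added, an alternative chosen after the values were seen, the adjusted P were 0.0561, 0.14 and 0.0539, so the calls did not change. Without *Ahr* HKO control liver 3 the rise with ethanol in *Ahr* HKO was called (log2 FC 0.63, adjusted P = 0.0288), and the diet effects differed without that liver (0.82, 0.0328) or without WT ethanol liver 1 (0.85, 0.0218).

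*Bhmt* and *Mtr* remethylate homocysteine. *Bhmt* (chromosome 13, 93616891 to 93637758), which takes the methyl group from betaine, was 2898, 2880.4 and 3610.4 CPM in the WT control livers and 2309.8, 2124 and 1952 CPM in the *Ahr* HKO control livers, so that it was 1.47-fold lower in *Ahr* HKO without overlap (log2 FC -0.55, SE 0.16, adjusted P = 0.0356). In a fit of all 12 livers this call was lost (adjusted P = 0.459), and it was lost without any of the 6 livers (adjusted P 0.0565 to 0.14). The ethanol livers spread far more, with 5642, 1215 and 1349 CPM in WT and 5775, 2097 and 4970.2 CPM in *Ahr* HKO. The log2 FC for ethanol was -0.19 in WT (95% interval -1.51 to 1.13) and 1.01 in *Ahr* HKO (interval 0.19 to 1.83, adjusted P = 0.0654), and DESeq2 called the latter (adjusted P = 0.00678). These values moved with single livers. Without WT ethanol liver 1 *Bhmt* was lower on ethanol in WT (log2 FC -1.30, adjusted P = 0.0137) and the diet effects differed by 2.30 (adjusted P = 0.0084), and without *Ahr* HKO ethanol liver 2 the rise in *Ahr* HKO was 1.34 (adjusted P = 0.0106). Without WT ethanol liver 2 or 3 the log2 FC in WT turned to 0.16 or 0.14, with no call. With any other liver left out, the rise in *Ahr* HKO had an adjusted P of 0.121 to 0.181. *Bhmt2*, its neighbour on chromosome 13 and a related methyltransferase, was lower in *Ahr* HKO control than in WT control livers as well (122 ± 10.1 against 186 ± 10.1 CPM, SD, n = 3; log2 FC -0.61, adjusted P = 0.00638).

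*Mtr* (chromosome 13, 12181331 to 12258199), which needs cobalamin and methylfolate, had the lowest counts of the group. It was 6.11, 5.84 and 4.74 CPM in the WT control livers and 2.19, 2.80 and 3.61 CPM in the WT ethanol livers, and every ethanol liver was below every control liver. *Mtr* fell 1.92-fold (log2 FC -0.94, SE 0.22, adjusted P = 0.0431). The *Ahr* HKO control livers had 4.54, 6.30 and 4.03 CPM and the *Ahr* HKO ethanol livers 2.92, 3.29 and 2.75 CPM, again without overlap, and *Mtr* fell 1.65-fold (log2 FC -0.73, SE 0.20, adjusted P = 0.0314). It was the only member called in both genotypes in these fits, and the diet effects differed by 0.22 (95% interval -0.45 to 0.89). Between the genotypes the log2 FC was -0.16 on the control diet and 0.06 on ethanol, both with overlapping groups. The call in WT was kept without ethanol liver 3 (adjusted P = 0.0362) and the adjusted P was 0.0652 to 0.137 without any of the other 5. The call in *Ahr* HKO was kept without control liver 3 (0.0257) and the adjusted P was 0.0534 to 0.103 without any of the other 5. On FPKM without quantile normalization the calls were lost, with a log2 FC of -0.37 in WT (adjusted P = 0.061) and -0.35 in *Ahr* HKO (0.0563) in limma on log2(FPKM + 1), and with adjusted P of 0.0763 and 0.0549 with a pseudocount of 0.1. In limma on quantile-normalized FPKM the call was kept in WT (log2 FC -0.44, 0.0447) and lost in *Ahr* HKO (log2 FC -0.26, 0.0515). The call was also lost in WT with no filter on low counts (0.052). The overlapping lncRNA *Gm10336* has 174 to 355 counts, in the range of *Mtr* itself.

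The FPKM of *Bhmt* was far above that of *Mtr* within each liver. Their ratio averaged 1252 ± 349.75 (SD, n = 3) in WT control and 961 ± 202 in *Ahr* HKO control livers. In the ethanol livers it was 5592, 940.3 and 808 in WT and 4298, 1387 and 3915 in *Ahr* HKO, where all 3 livers of *Ahr* HKO lay above the *Ahr* HKO control livers (731 to 1104).

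*Cbs* and *Cth* carry homocysteine towards cysteine by transsulfuration. *Cth* (chromosome 3, 157894248 to 157925081), which cleaves cystathionine, was 140.2, 140.4 and 181 CPM in the *Ahr* HKO control livers and 285, 290.3 and 326 CPM in the *Ahr* HKO ethanol livers. It rose 1.95-fold (log2 FC 0.97, SE 0.15, adjusted P = 0.00474), and it kept its call without each of the 6 livers in turn (adjusted P 0.00359 to 0.02). The WT control livers had 255, 173 and 193 CPM and the WT ethanol livers 281, 231 and 157 CPM, with overlap (log2 FC 0.12, 95% interval -0.42 to 0.67). The diet effects differed by 0.86 (SE 0.29, adjusted P = 0.0561), and DESeq2 (0.0266), upper-quartile scaling (0.0483) and the fits without WT ethanol liver 1 (0.0242) or *Ahr* HKO control liver 3 (0.0426) called this difference.

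*Cbs* (chromosome 17, 31612623 to 31637233), which joins homocysteine and serine, was 523, 505 and 493 CPM in WT control, 339, 316 and 507 CPM in WT ethanol, 442, 545 and 580.3 CPM in *Ahr* HKO control and 599, 512 and 540.1 CPM in *Ahr* HKO ethanol livers. None of its differences was called. The WT ethanol livers lay below all *Ahr* HKO ethanol livers (log2 FC 0.51, SE 0.19, adjusted P = 0.189), and without WT ethanol liver 3, which held the highest value of its group, the adjusted P was 0.0482 there and 0.0308 for ethanol in WT (log2 FC -0.62), and the diet effects differed by 0.71 (0.0221). The ratio of the FPKM of *Cbs* to that of *Cth* averaged 2.47 ± 0.292 in *Ahr* HKO control and 1.33 ± 0.169 in *Ahr* HKO ethanol livers (SD, n = 3), with 1.82 ± 0.317 and 1.40 ± 0.814 in WT control and ethanol livers.

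**Figure D4:**
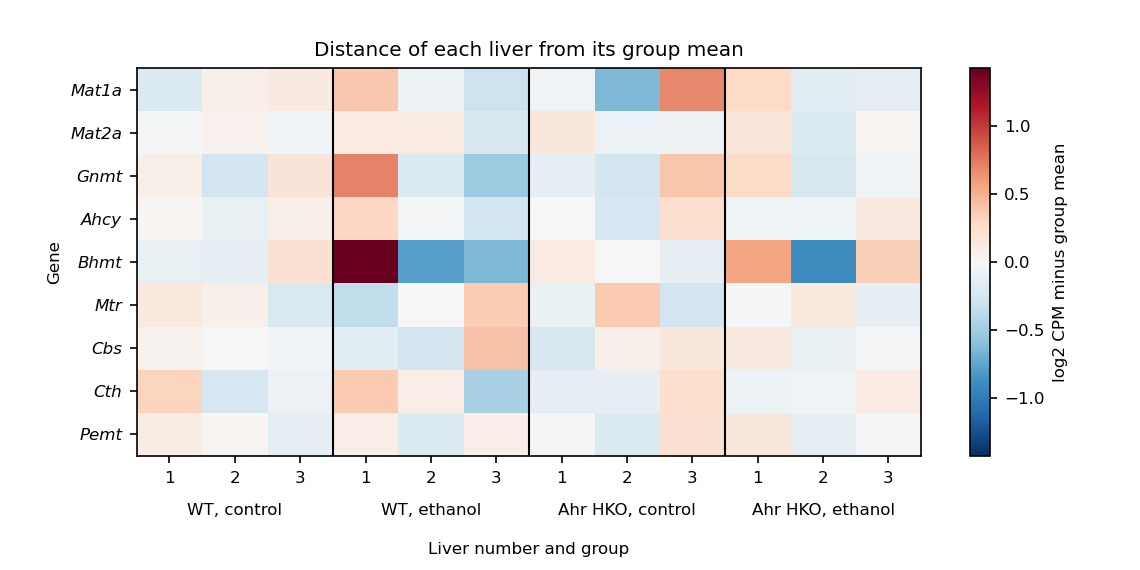
Distance of each liver from the mean of its group on the log2 CPM scale, for the 9 genes (rows) and the 12 livers (columns, numbered within their group). WT ethanol liver 1 is far above its group for *Bhmt* and above it for *Gnmt*, *Mat1a*, *Cth* and *Ahcy*, and below it for *Mtr*.

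In some livers many of the 9 genes had the highest or the lowest value of their group. The share of all genes that did so in the same livers was not counted. Whether these counts are particular to the members was therefore not tested. In WT ethanol liver 1 the members with the highest value of the group were 6 of 9, namely *Mat1a*, *Mat2a*, *Gnmt*, *Ahcy*, *Bhmt* and *Cth*, while *Mtr* had its lowest value there. In *Ahr* HKO ethanol liver 2 the lowest value of the group was found for 7 of 9. In *Ahr* HKO control liver 3 the highest value was found for 6 of 9. The highest liver exceeded the lowest of its group 4.65-fold for *Bhmt* in WT ethanol and 2.75-fold in *Ahr* HKO ethanol livers, against 1.25-fold and 1.18-fold on the control diet. For *Gnmt* it did so 2.33-fold in WT ethanol and 1.42-fold in *Ahr* HKO ethanol livers.

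Genes around the cycle were described by 8 lists, of which 77 genes were tested. Of these, 8 rose and 1 fell with ethanol in WT, which is 10.4% and 1.3% beside 4.84% and 4.63% of all genes. In *Ahr* HKO 21 rose and 5 fell with ethanol, 27.3% and 6.49%, beside 14.9% and 15.9% of all genes. On the control diet 11 were higher and 20 were lower in *Ahr* HKO, 14.3% and 26%, beside 15.4% and 14.2%. On the ethanol diet none was called between the genotypes, beside 1.1% of all genes. The lists were chosen with earlier results of these data known, so these shares are a description and cannot test an excess over all genes.

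Choline and betaine genes supply BHMT with its methyl donor and take up its product. None of the 6 was called for ethanol in WT, where 9.47% of all genes were called. In *Ahr* HKO 3 rose with ethanol, where 14.9% of all genes rose. These were *Sardh* (log2 FC 0.64, adjusted P = 0.0228), *Dmgdh* (0.68, 0.0252), which oxidizes the dimethylglycine left by BHMT, and *Aldh7a1* (0.54, 0.0378), which makes betaine aldehyde into betaine. *Sardh* was 741 ± 114 CPM in *Ahr* HKO control and 1152 ± 85.3 CPM in *Ahr* HKO ethanol livers (SD, n = 3). On the control diet 2 were lower in *Ahr* HKO (14.2% of all genes), *Sardh* (-0.56, 0.0321) and the betaine transporter *Slc6a12* (-0.92, 0.00225).

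Folate genes carry the methyl group to MTR. In *Ahr* HKO 3 of 15 rose with ethanol and none fell, beside 14.9% and 15.9% of all genes. *Ftcd*, which degrades histidine with the use of folate, rose 2.05-fold (296 ± 12.4 to 606 ± 39 CPM, SD, n = 3, adjusted P = 0.00234), *Shmt2*, the mitochondrial serine hydroxymethyltransferase, rose 1.79-fold (adjusted P = 0.00573), and the folate carrier *Slc46a1* rose 1.70-fold (0.00734). On the control diet 6 of 15 were lower in *Ahr* HKO and 1 was higher (14.2% and 15.4% of all genes), with *Shmt2* (log2 FC -0.79), *Ftcd* (-0.67) and *Mthfd1* (-0.70) among the lower ones. In WT 1 of 15 rose with ethanol (4.84% of all genes), the mitochondrial *Aldh1l2* (0.224 ± 0.0233 to 0.838 ± 0.205 CPM, adjusted P = 0.0302).

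Genes of cysteine, glutathione and taurine lie after CTH. Of the 11 tested, 5 rose with ethanol in WT (4.84% of all genes), among them *Gclc*, the catalytic subunit of the enzyme limiting glutathione synthesis (149 ± 48.6 to 477 ± 34.5 CPM, SD, n = 3, adjusted P = 0.00935), and *Gss*, which completes glutathione (log2 FC 0.72, adjusted P = 0.0136). *Slc7a11*, the cystine transporter, was listed at 0 counts in all 3 WT control livers and at 0.422 ± 0.167 CPM in the WT ethanol livers, at least 7.02-fold above the mean level of 3 counts per control liver. In *Ahr* HKO 5 rose with ethanol as well (14.9% of all genes), with the sulfur dioxygenase *Ethe1* at 25.2 ± 4 CPM in control and 115 ± 36 CPM in ethanol livers (adjusted P = 0.00234), the modifier subunit *Gclm* (log2 FC 0.64, 0.00473) and *Mpst* (0.75, 0.0116). The control diet showed 4 lower and 2 higher in *Ahr* HKO (14.2% and 15.4% of all genes), with *Csad*, which makes taurine precursors, 3.43-fold lower (adjusted P = 0.0112), *Gclm* lower (log2 FC -0.59, 0.00477) and *Gclc* higher (149 against 329.8 CPM, 0.0117).

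Methionine salvage and polyamine genes recycle the methylthio group and use decarboxylated S-adenosylmethionine. With ethanol 2 of 13 rose and 1 fell in WT (4.84% and 4.63% of all genes), *Adi1* (log2 FC 0.48, adjusted P = 0.0163) and *Amd2* (0.75, 0.033) upward and the polyamine oxidase *Paox* downward (-0.96, 0.00597). In *Ahr* HKO 3 rose and 2 fell (14.9% and 15.9% of all genes), with *Adi1* (0.68, 0.00682) and *Apip* (0.59, 0.00809) higher and the spermine oxidase *Smox* lower (-1.72, 0.00262). On the control diet 3 were higher and 4 were lower in *Ahr* HKO (15.4% and 14.2% of all genes), with *Srm*, the spermidine synthase, 2.52-fold higher (adjusted P = 0.00485).

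Other methyltransferases that draw on S-adenosylmethionine were grouped by substrate. Of 7 small-molecule methyltransferases none was called for ethanol in WT (9.47% of all genes). In *Ahr* HKO 3 of these rose and 1 fell (14.9% and 15.9% of all genes), with *Hnmt* (2.22-fold, adjusted P = 0.0056) and *Inmt* (log2 FC 2.04, 0.0227) higher and *Nnmt*, the nicotinamide N-methyltransferase, lower (-1.12, 0.0173). *Gamt*, which makes creatine, was 181 ± 18.1 CPM in WT control and 95.8 ± 13.3 CPM in *Ahr* HKO control livers (SD, n = 3, adjusted P = 0.00387). Of 6 DNA and RNA methyltransferases only *Dnmt1* was called with ethanol in *Ahr* HKO (30.8% of all genes), downward (-0.80, 0.0106), and only *Mettl3* was called on the control diet (29.6% of all genes), higher in *Ahr* HKO (0.55, 0.00575). Of 10 genes of the CDP-choline and CDP-ethanolamine routes, none was called with ethanol in WT (9.47% of all genes). In *Ahr* HKO 3 of these rose and 1 fell with ethanol (14.9% and 15.9% of all genes), among them *Chpt1* (0.65, 0.00682) and *Pcyt2* (0.61, 0.00925) upward and *Etnk1* downward (-0.54, 0.00952). Among 9 partners of the cycle, *Bhmt2* rose with ethanol in *Ahr* HKO (0.57, 0.0461), and *Mettl16*, which regulates *Mat2a* RNA, was higher in *Ahr* HKO on the control diet (0.48, 0.0113).

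The genes whose pattern over the 12 livers was most like that of a member were sought among 11880 tested genes, by the root mean square difference of log2 CPM centred over the livers. For *Ahcy* this was *Gm4737*, at 0.09, followed by *Prdx5* at 0.10. Next to *Cth* were *Cyp4v3* at 0.15, *Gls2* at 0.17 and *Uroc1* at 0.18. The nearest genes were *Mgmt* at 0.16 for *Gnmt*, *Abcb6* at 0.10 for *Pemt*, *Ankrd13a* at 0.11 for *Mat2a*, *Zfp760* at 0.11 for *Cbs*, *Zfp661* at 0.19 for *Mtr*, *Pcsk5* at 0.21 for *Mat1a* and *Tlcd2* at 0.36 for *Bhmt*. Among the members themselves the closest pair was *Gnmt* and *Cth*, at 0.24, then *Ahcy* and *Cth*, at 0.25.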

How the data were processed

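RNA-seq of 12 mouse livers, 3 in each of 4 groups formed from the labels, was used. The authors deposited read counts per gene, whole numbers with no normalization, together with FPKM and TPM values for the same genes. TPM entered no result. Per the labels, the submitters' processing notes name FastQC 0.11.7, Trimmomatic 0.38, HISAT2 2.1.0, Bowtie2 2.3.4.1, StringTie 1.3.4d and the mm10 build. How shared reads were assigned and whether strand was used in counting are not given in the sources used here.

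Genes were filtered with filterByExpr in edgeR 4.0.16 (R 4.3.3), leaving 14038. Each pair of groups was fitted on its own 6 libraries with TMM scaling and the quasi-likelihood test, and the interaction (diet effect in *Ahr* HKO minus that in WT) on all 12. P values were adjusted by Benjamini-Hochberg over all tested genes, and the procedure was tested on simulated data. P values measure the spread between these livers. The smallest level taken as detectable, 3 counts, was 0.0425 to 0.0676 CPM and covers counting error only. Alternatives were DESeq2 1.42.0, limma 3.58.1 on log2(FPKM + 1) or log2(FPKM + 0.1), with and without quantile normalization, other scaling, filters and call rules, a replicate block, and leaving out each liver. The 9 genes and the lists were chosen with earlier results of these data known. From each list, at most 3 called genes with the lowest adjusted P per comparison were named, and for each member the genes with the most similar pattern. Positions are from RefSeq (GRCm38), which is the mm10 assembly. Figures were drawn with matplotlib 3.10.9.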

Additional observations from a re-analysis of the deposited data

Results flagged for a closer look

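The diet effect on *Mat2a* differed between the genotypes. It was -0.53 on the log2 scale (SE 0.18, *Ahr* HKO minus WT, adjusted P = 0.0498, edgeR), with *Mat2a* higher in 3 of 3 WT ethanol livers than in every WT control liver. The value lay just under the threshold and its range of adjusted P over the alternatives was 0.0109 to 0.118. It was not called with upper-quartile scaling (0.0561), with no filter on low counts (0.0585) or with the replicate block (0.054). The WT control livers were 67.6 to 72.5 CPM and the other 9 livers 78.4 to 111 CPM.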

How the results depend on the processing

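The share of all genes called in the same setting stands in brackets after each count. The count of members called for ethanol in WT was 2 (9.47%). It was 1 with no filter on low counts (6.32%), 1 with an added FC above 1.5 (6.76%) and 1 with the thresholds of the study (14.1%). When a liver was left out it was 0 to 3 (2.61% to 7.31%). For ethanol in *Ahr* HKO, 4 (30.8%) became 2 with quantile-normalized FPKM in limma (30.8%) and 1 to 5 when a liver was left out (18.4% to 27%). DESeq2 called 6 (36.6%), *Bhmt* and *Ahcy* among them. The study's thresholds for ethanol in WT, used here in *Ahr* HKO as well (31.1%), added *Bhmt*. For the genotypes on the control diet, 2 (29.6%) became 1 in a fit of all 12 livers (31.2%), where *Mat2a* and *Bhmt* lost their calls and *Pemt* gained a call. The count was 0 with the FC limit (19.9%), 0 with the study's thresholds (19.9%) and 0 to 2 without a liver (18.7% to 26.7%). For the genotypes on ethanol, 0 (1.1%) became 1 with DESeq2 (10.8%) and lay between 0 and 1 without a liver (0.0499% to 1.35%). For the difference of the diet effects, 1 (22.3%) became 3 with DESeq2 (28.3%) and 2 with upper-quartile scaling (22.5%), which were *Ahcy* and *Cth* and not *Mat2a*. It was 0 with no filter (16.7%) and 0 to 3 without a liver (16.1% to 22%). The livers without which the call of a single gene was kept or lost are named beside it in the report, and the cause was not tested.

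With the replicate number as a block, the members called were 0 for ethanol in WT, against 3.68% of all genes. There were 3 for ethanol in *Ahr* HKO (21.4% of all genes), where *Gnmt* lost its call (0.054). None was called between control groups (21.4%) or for the difference of the diet effects (19.6%). Deviations of same-numbered livers correlated at -0.0884 to 0.178 over 12 pairs of livers, and 2 of them correlated best with their own number. Both of these were between the ethanol groups (0.178 and 0.133). With 3 livers per group this check cannot settle whether the numbers pair the livers.

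No called member changed direction in any setting. The values that did were of members with no call. For ethanol in *Ahr* HKO, *Mat1a* (-0.0093) was 0.0019 with DESeq2, 0.0063 with upper-quartile scaling, 0.0046 with no filter, 0.0904 with the block, 0.011 in limma on log2(FPKM + 1) and 0.011 with a pseudocount of 0.1, and -0.28 to 0.42 without a liver; *Mat2a* (0.03) was -0.0399, -0.0412 and -0.0746 in limma with a pseudocount of 1, of 0.1 and after quantile normalization; *Cbs* (0.08) was -0.12 after quantile normalization. On the control diet, *Cbs* (0.05) was -0.0261 with upper-quartile scaling. On ethanol, *Gnmt* (0.20) was -0.48 after quantile normalization, *Mtr* (0.06) was -0.061 and -0.12 in limma on FPKM, and *Pemt* (0.03) was -0.0193 with upper-quartile scaling and -0.19, -0.19 and -0.0501 in limma. The difference of the diet effects for *Gnmt* (0.36) was -0.29 after quantile normalization. Without a liver, members that reversed ranged as follows. For ethanol in WT, *Bhmt* from -1.30 to 0.16, *Cth* from -0.10 to 0.32. For ethanol in *Ahr* HKO, *Mat2a* from -0.053 to 0.13, *Cbs* from -0.0293 to 0.17. For the genotypes on the control diet, *Mat1a* from -0.0324 to 0.66, *Cbs* from -0.0392 to 0.16. For the genotypes on ethanol, *Mat1a* from -0.34 to 0.0246, *Gnmt* from -0.029 to 0.64, *Mtr* from -0.10 to 0.26, *Pemt* from -0.0476 to 0.0856.

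Of 513 values of the other settings 446 kept direction and call, 26 lost the call, 22 gained it and 19 changed direction. Of 324 values without a liver 252 kept both, 43 lost the call, 12 gained it and 17 changed direction. Only 9 results were called in the main fit and could lose a call, so most values that kept both were of members with no call. The 513 include the FC limit and the study's thresholds, which reuse the main fit and could not change direction. They also include the added reads of *Gm4737*, which barely touch members other than *Ahcy*. In limma on FPKM the median of all genes was shifted, to 0.10 and 0.16 for ethanol in WT, -0.13 and -0.21 for the genotypes on ethanol and -0.14 and -0.24 for the difference of the diet effects, with pseudocounts of 1 and 0.1, and the values above were not centred on it.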

Other observations

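The difference between the diet effects of the 2 genotypes was also fitted for the 77 listed genes around the cycle. It was called higher for 14 and lower for 9, which is 18.2% and 11.7% beside 11.2% and 11.1% of all genes. As the lists were chosen with earlier results of these data known, these shares cannot test an excess. Among the positive differences were *Paox* (log2 difference 1.79, SE 0.26, adjusted P = 0.0013), *Shmt2* (1.14, SE 0.24, adjusted P = 0.00758), *Hnmt* (1.01, SE 0.21, adjusted P = 0.00705) and *Ftcd* (0.93, SE 0.16, adjusted P = 0.00331). Among the negative ones were *Smox* (-2.12, SE 0.29, adjusted P = 0.000939), *Gclc* (-1.52, SE 0.31, adjusted P = 0.00682) and *Etnk1* (-0.88, SE 0.17, adjusted P = 0.00439). Of the 6 choline and betaine genes all had a positive difference (0.20 to 0.93), and *Aldh7a1* (0.90, adjusted P = 0.00857) and *Sardh* (0.89, adjusted P = 0.0374) were called.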
